A study of Mus musculus with 9 samples.

Results

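The Pramel genes are the mouse relatives of PRAME that carry a Pramel symbol, and they are described here in embryonic stem cells after knockdown of Phf5a or Paf1. Members were all genes whose symbol in the platform annotation of the array starts with Pramel and that had a probe set annotated to that gene alone, which gave 30 genes of 22180 tested. Genes with several such probe sets were represented by 1 of them, chosen by the highest mean level over the 9 arrays. That step decided only Pramel34, which had 2 of them, and no difference between groups entered the choice. No filter on low values was applied, and all 30 members were tested. The deposited values are on a log2 scale, so a difference of 1 is a 2-fold change. The labels do not state the log base, which was inferred from the values.

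The study knocked down Phf5a, a PHD-finger protein of the SF3b splicing complex, and Paf1, the subunit that names the Paf1 complex of elongating RNA polymerase II, and its title asks about transcriptional elongation in pluripotency. Each group holds 3 Affymetrix whole-transcript arrays. shPhf5a cells carried a lentiviral hairpin against Phf5a and shPaf1 cells one against Paf1, while shControl cells carried a control hairpin. All groups were the NG4 line, mouse embryonic stem cells of 129/Sv origin with a GFP reporter of Nanog, grown on gelatin with LIF. All were transduced with a pLKO.1-type lentivirus and kept in 2 μg/mL puromycin for 72 h, so that the controls share transduction and drug selection. A group is 1 hairpin in 1 cell line, and effects of a hairpin and of its target cannot be told apart. The labels do not say whether replicates were separate cultures, and p-values therefore rest on a spread between arrays that may be only technical.

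PRAME family proteins are built of leucine-rich repeats. Human PRAME is a cancer-testis antigen, silent in most adult tissues, and works as a substrate receptor of Cullin-2 ubiquitin ligases. Mouse Pramel genes lie in clusters of close copies and are known from the testis, the oocyte and the early embryo. In mouse embryonic stem cells Pramel7 is a STAT3 target that sustains self-renewal and, with Cullin-2, directs degradation of UHRF1, a cofactor of maintenance DNA methylation. Close copies can hybridize to each other's probes, so the signal of a member may include RNA of its relatives.

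Array medians lay between 6.22 and 6.31. The hairpins lowered their targets: Phf5a by a log2 change of -1.24 in shPhf5a (SE 0.16, limma adjusted p = 0.00024) and Paf1 by -1.39 in shPaf1 (SE 0.08, adjusted p = 1.73e-06). Each target was also lower under the other hairpin, Phf5a by -0.57 in shPaf1 (adjusted p = 0.0183) and Paf1 by -0.25 in shPhf5a (adjusted p = 0.0267). The second shPhf5a array stood apart, with correlations of 0.986 to 0.987 with the shControl arrays over all probe sets, against 0.973 to 0.976 for the other shPhf5a arrays. Embryonic stem cell markers were bright in all groups except Dppa5a, whose group means lay between 5.95 and 6.12, below the gene median of 6.70.

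Pramel genes that moved were higher in the knockdown cells. In shPhf5a against shControl, 13 of 30 members rose, 0 fell and 17 did not pass limma's test at an adjusted p under 0.05, where 16.7% of all genes rose and 20.7% fell, 37.4% in either direction. At an unadjusted p under 0.05, 15 members were higher and 0 lower. In shPaf1 against shControl, 14 of 30 rose, 0 fell and 16 did not pass, where 18.0% of all genes rose and 17.8% fell, 35.8% in either direction. At an unadjusted p under 0.05, 16 were higher and 1, Pramel13, was lower. Both comparisons use the same shControl arrays. In these bulk samples, more RNA per cell and more cells that express a gene cannot be told apart.

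The size of the change differed widely among members. At least 2-fold rises were called for 3 members in shPhf5a, where 2.07% of all genes had one, and for 7 in shPaf1, where 1.91% did. The median log2 change over all 30 members was 0.15 in shPhf5a, beside -0.03 over all genes, and 0.19 in shPaf1, beside -0.01. Taken array by array, the median difference of the members from the shControl mean was 0.17, 0.09 and 0.19 in the shPhf5a arrays and 0.18, 0.22 and 0.25 in the shPaf1 arrays. The second shPhf5a array thus had the lowest of these. Without it, 14 members rose and 0 fell in shPhf5a. All 3 arrays lay above all shControl arrays for 13 members in shPhf5a, where 19.9% of all genes did so, and for 17 in shPaf1, where 23.2% did. They lay below for Pramel22 in shPhf5a and for Pramel13 in shPaf1, where 25.9% and 25.0% of all genes did so. Centring each array on its median left the members' calls at 12 higher and 0 lower in shPhf5a and 13 higher and 1 lower in shPaf1. For all genes in shPaf1 the split was 3386 higher and 5291 lower with that centring, and 3983 higher and 3947 lower without it.

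**Figure D1:**
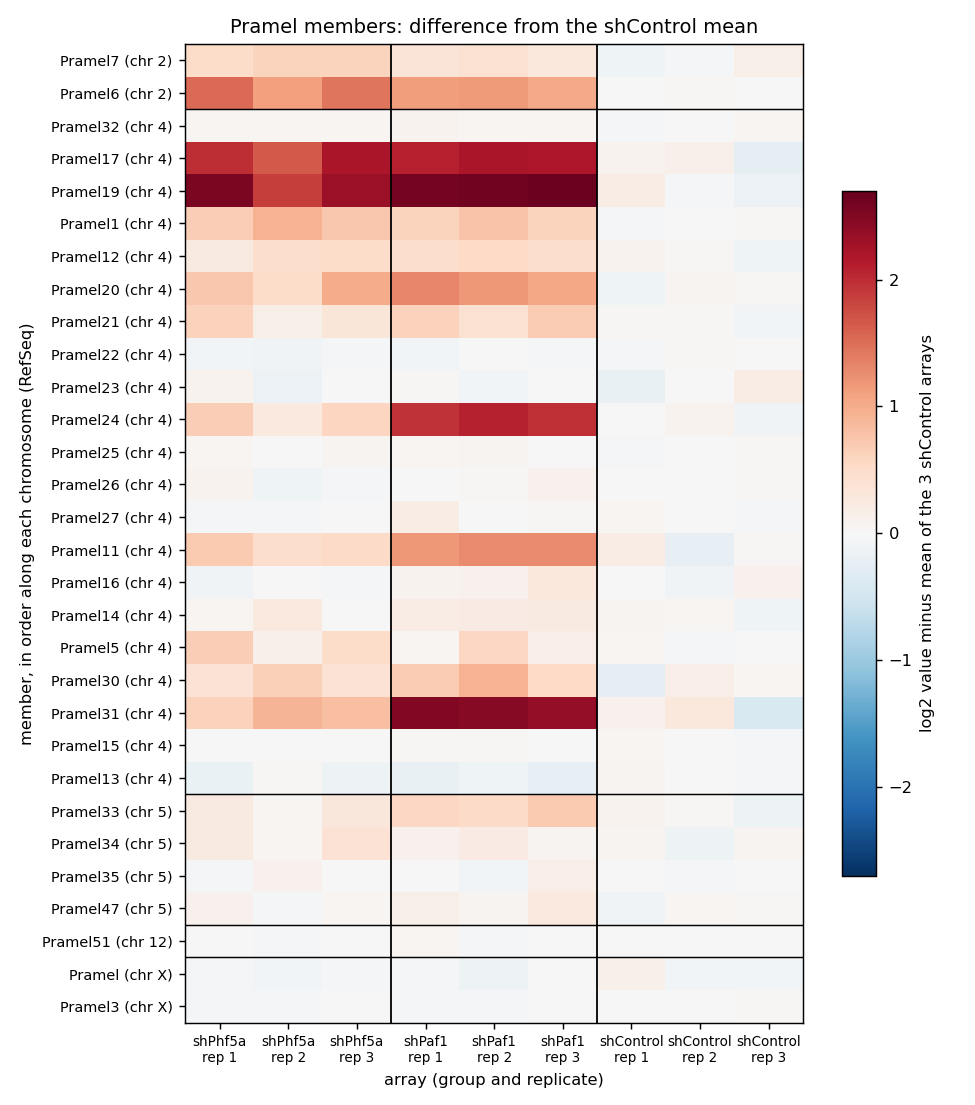
Difference of each of the 30 Pramel members from the mean of the 3 shControl arrays (colour, log2 units), with members down the page in order along each chromosome and the 9 arrays across. Rises gather in Pramel17 and Pramel19, in Pramel6 and Pramel7 and in some members of the large chromosome 4 cluster, while members on chromosomes 12 and X stay near 0 in every array.

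Of the 30 members, 17 had a mean over all 9 arrays below the lower quartile of the genes, 5.52. Their array values lay between 4.43 and 5.79, and no detection calls were used here, so whether RNA of these members was detected at all was not tested. Of these 17, 2 rose in shPhf5a and 2 in shPaf1, beside 16.7% and 18.0% of all genes. Of the 8 members above the gene median, 6 and 7 rose, and of the 5 in between, 5 rose in each. These classes use the mean over all arrays, which a rise lifts, so they do not test an effect of brightness. Chromosomes, from the RefSeq gene table of build GRCm38.p6, were 4 for 21 members, 5 for 4, 2 and X for 2 each and 12 for 1.

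Pramel19 and Pramel17 showed the largest rises in shPhf5a. They lie near each other on chromosome 4, away from the large cluster, with Pramel18 between them, which had no probe set of its own. Pramel19 measured 12.40, 11.74 and 12.19 in the shPhf5a arrays, 12.45, 12.47 and 12.52 in the shPaf1 arrays and 10.05, 9.83 and 9.70 in the shControl arrays. Every knockdown array lay above every shControl array, and the second shPhf5a array was the lowest of the 6 knockdown arrays. Pramel19 rose by a log2 change of 2.25 in shPhf5a (SE 0.15, limma adjusted p = 6.81e-06), a 4.75-fold change, and by 2.62 in shPaf1 (SE 0.15, adjusted p = 2.13e-06), a 6.14-fold change. Pramel17 measured 7.20, 6.86 and 7.41 in shPhf5a, 7.32, 7.42 and 7.40 in shPaf1 and 5.31, 5.36 and 4.97 in shControl. Again every knockdown array lay above every shControl array, and the second shPhf5a array was the lowest knockdown array. The 2 knockdown groups overlapped each other. Its log2 change was 1.94 in shPhf5a (SE 0.14, adjusted p = 9.26e-06), a 3.85-fold rise, and 2.17 in shPaf1 (SE 0.14, adjusted p = 3.45e-06), a 4.49-fold rise.

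The promoters of Pramel17 and Pramel19 are shown because these genes lie near each other and had the largest rises in shPhf5a. Each runs from 250 bases before to 50 bases after the RefSeq start on GRCm38.p6, 5′ to 3′ along the gene, and capitals mark ATTGG, which is the word CCAAT on the strand opposite the gene. Pramel17 lies on the minus strand at chr4:101843973-101844272 and Pramel19 on the plus strand at chr4:101940157-101940456.
Pramel17: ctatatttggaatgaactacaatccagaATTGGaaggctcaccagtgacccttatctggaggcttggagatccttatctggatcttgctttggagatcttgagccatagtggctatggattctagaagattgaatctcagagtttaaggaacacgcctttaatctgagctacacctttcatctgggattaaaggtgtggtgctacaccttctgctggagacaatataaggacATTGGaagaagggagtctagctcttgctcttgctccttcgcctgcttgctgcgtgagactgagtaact
Pramel19: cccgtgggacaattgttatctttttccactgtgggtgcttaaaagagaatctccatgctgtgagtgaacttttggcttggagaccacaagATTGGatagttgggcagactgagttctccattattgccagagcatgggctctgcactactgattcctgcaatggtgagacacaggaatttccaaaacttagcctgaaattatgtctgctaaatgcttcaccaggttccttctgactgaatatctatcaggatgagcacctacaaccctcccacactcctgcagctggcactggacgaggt
Aligned over their length, these promoters were identical at 53.5% of positions, beside a median of 50.9% over all 325 pairs of member promoters.

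Pramel6 and Pramel7, neighbours on chromosome 2 known from the morula and the inner cell mass, both rose in both knockdowns. Pramel6 measured 7.52, 7.09 and 7.43 in shPhf5a, 7.12, 7.13 and 7.02 in shPaf1 and 5.97, 6.02 and 5.97 in shControl. The 6 knockdown arrays lay above the 3 shControl arrays by a wide margin. Pramel6 rose by 1.36 in shPhf5a (SE 0.10, limma adjusted p = 9.52e-06), a 2.57-fold change, and by 1.10 in shPaf1 (SE 0.10, adjusted p = 2.02e-05), a 2.15-fold change. Pramel7 measured 6.65, 6.77 and 6.77 in shPhf5a, 6.51, 6.58 and 6.44 in shPaf1 and 6.04, 6.12 and 6.32 in shControl. Its groups did not overlap, although the third shControl array came close to the lowest shPaf1 array. The rise was smaller than that of Pramel6, at 0.57 in shPhf5a (SE 0.08, adjusted p = 0.000292), a 1.48-fold change, and at 0.35 in shPaf1 (SE 0.08, adjusted p = 0.0048), a 1.27-fold change. Their promoters were identical at 48.2% of positions, below the median of 50.9% over all pairs of member promoters.

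The large cluster on chromosome 4 holds 18 of the members, and 9 of them rose in each knockdown. Neighbours that rose and neighbours that were not called stood side by side. In order along the chromosome, the 4 members from Pramel1 through Pramel12 and Pramel20 to Pramel21 rose in both, and Pramel24, Pramel11, Pramel30 and Pramel31 did so further on. Between them, Pramel22, Pramel23, Pramel25, Pramel26 and Pramel27 did not pass the test in either knockdown. All of these had means over all arrays below the lower quartile of the genes, 5.52. Whether their RNA was detected was not tested. Further Pramel genes, such as Pramel4 and Pramel29, lie within this cluster and had no probe set of their own.

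Pramel24 and Pramel31 carried the largest shPaf1 rises of that cluster. Pramel24 measured 7.96, 7.54 and 7.87 in shPhf5a, 9.24, 9.38 and 9.26 in shPaf1 and 7.28, 7.39 and 7.20 in shControl. Its shPaf1 arrays stood far above all others, and its shPhf5a arrays lay just above shControl. The log2 change was 0.50 in shPhf5a (SE 0.10, limma adjusted p = 0.00312), a 1.42-fold rise, and 2.00 in shPaf1 (SE 0.10, adjusted p = 1.21e-06), a 4.01-fold rise. Pramel31 measured 5.79, 6.08 and 5.98 in shPhf5a, 7.66, 7.63 and 7.53 in shPaf1 and 5.28, 5.45 and 4.76 in shControl. The order of the groups was as for Pramel24, and the third shControl array was the lowest. Pramel31 rose by 0.79 in shPhf5a (SE 0.15, adjusted p = 0.0025), a 1.73-fold change, and by 2.45 in shPaf1 (SE 0.15, adjusted p = 3.21e-06), a 5.45-fold change.

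Pramel11 and Pramel20 followed the same order of groups with smaller rises in shPaf1. Pramel11 measured 6.41, 6.18 and 6.22 in shPhf5a, 6.87, 6.98 and 6.98 in shPaf1 and 5.90, 5.47 and 5.72 in shControl. No arrays overlapped between the groups. Its log2 change was 0.57 in shPhf5a (SE 0.10, limma adjusted p = 0.00161), a 1.49-fold rise, and 1.25 in shPaf1 (SE 0.10, adjusted p = 1.41e-05), a 2.37-fold rise. Pramel20 measured 5.90, 5.67 and 6.18 in shPhf5a, 6.50, 6.34 and 6.22 in shPaf1 and 5.07, 5.25 and 5.20 in shControl. Here the highest shPhf5a array came close to the lowest shPaf1 array. Pramel20 rose by 0.75 in shPhf5a (SE 0.12, adjusted p = 0.000884), a 1.68-fold change, and by 1.18 in shPaf1 (SE 0.12, adjusted p = 5.06e-05), a 2.26-fold change.

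The promoters of Pramel11 and Pramel24 are shown because they are among the most alike of the family while the shPaf1 change of these genes differed. Both are RefSeq sequences on GRCm38.p6 over the same window, Pramel11 on the minus strand at chr4:143900331-143900630 and Pramel24 on the plus strand at chr4:143719201-143719500. Capitals mark ATTGG, the word CCAAT on the strand opposite the gene, which the Pramel11 window holds close to its 3′ end. The Pramel24 window stops within the matching stretch, so whether Pramel24 has the word there was not tested.
Pramel11: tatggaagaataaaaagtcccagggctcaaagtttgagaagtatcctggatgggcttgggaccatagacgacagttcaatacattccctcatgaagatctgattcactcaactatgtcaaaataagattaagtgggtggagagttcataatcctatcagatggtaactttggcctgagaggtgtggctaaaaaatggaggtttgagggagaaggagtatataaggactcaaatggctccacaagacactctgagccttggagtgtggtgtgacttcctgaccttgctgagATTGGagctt
Pramel24: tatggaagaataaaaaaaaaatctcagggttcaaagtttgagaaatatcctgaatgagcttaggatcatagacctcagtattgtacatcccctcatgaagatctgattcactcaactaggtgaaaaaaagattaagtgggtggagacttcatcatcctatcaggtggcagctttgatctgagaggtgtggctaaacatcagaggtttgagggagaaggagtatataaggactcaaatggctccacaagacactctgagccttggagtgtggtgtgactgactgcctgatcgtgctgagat
They were identical at 84.7% of aligned positions. The log2 changes of Pramel11 and Pramel24 lay 0.07 apart in shPhf5a and 0.76 apart in shPaf1.

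Pramel1, which is known from mouse testis and sperm, rose by similar amounts in both knockdowns. It measured 7.77, 8.04 and 7.82 in shPhf5a, 7.69, 7.86 and 7.69 in shPaf1 and 7.06, 7.11 and 7.12 in shControl. The knockdown groups overlapped each other and lay above shControl in every array. Pramel1 rose by 0.78 in shPhf5a (SE 0.08, limma adjusted p = 5.41e-05), a 1.72-fold change, and by 0.65 in shPaf1 (SE 0.08, adjusted p = 0.000123), a 1.57-fold change. Pramel30 measured 7.74, 7.99 and 7.74 in shPhf5a, 8.03, 8.30 and 7.88 in shPaf1 and 7.11, 7.53 and 7.41 in shControl. The knockdown arrays were all above the shControl arrays, among which the first was the lowest. Pramel30 rose by 0.47 in shPhf5a (SE 0.13, adjusted p = 0.0181), a 1.38-fold change, and by 0.72 in shPaf1 (SE 0.13, adjusted p = 0.00177), a 1.64-fold change. Leaving out the second shPhf5a array or the first shControl array ended its shPhf5a call, with adjusted p between 0.0541 and 0.0691.

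**Figure D2:**
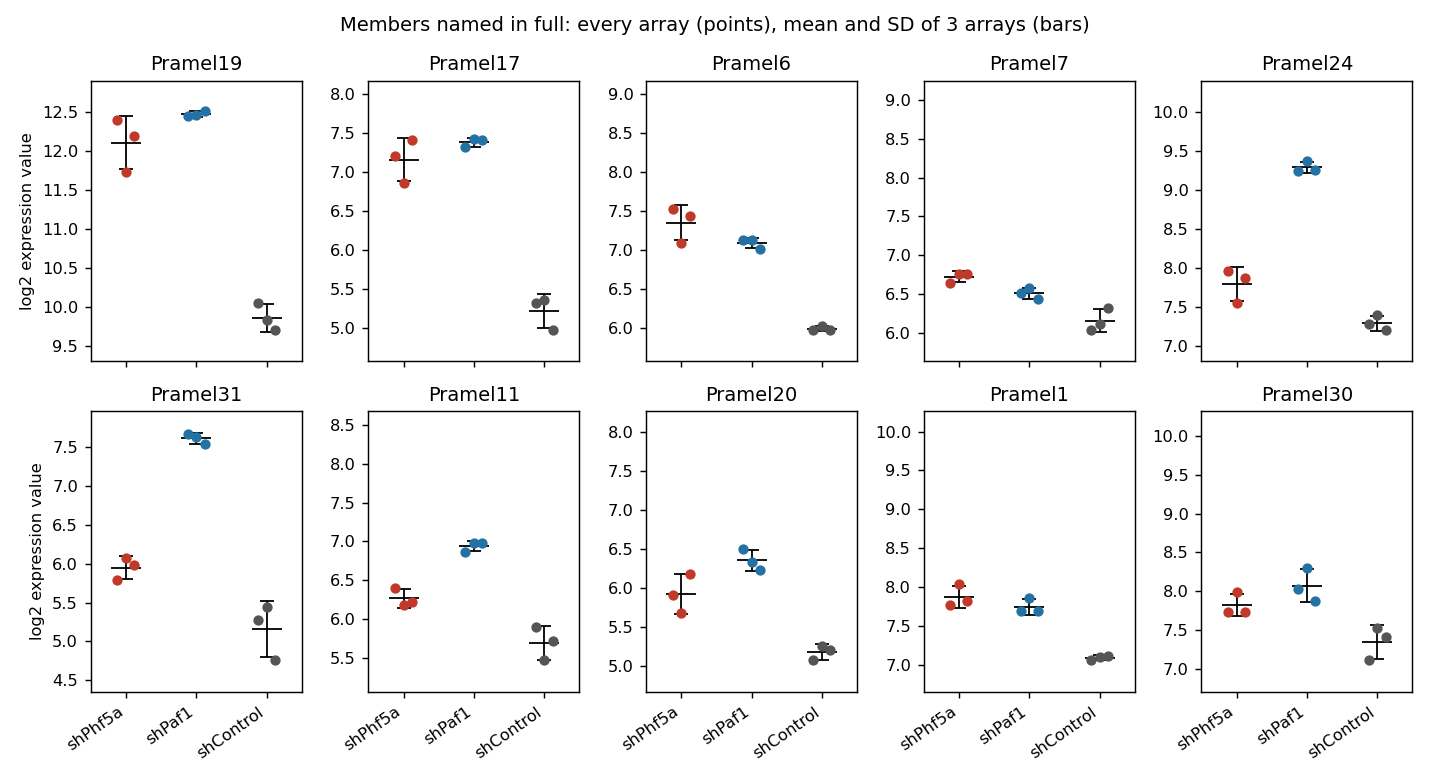
Log2 expression values of 10 Pramel members in every array (points), with the mean and SD of the 3 arrays of each group (bars), on axes of equal span. Pramel24, Pramel31 and Pramel11 stand highest in shPaf1, while Pramel6 and Pramel1 stand at similar heights in shPhf5a and shPaf1 and lower in shControl.

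The other called members of the cluster changed less. Pramel12 rose by 0.41 in shPhf5a (SE 0.08, limma adjusted p = 0.0028) and by 0.50 in shPaf1 (SE 0.08, adjusted p = 0.000845), with means of 8.98 and 9.07 against 8.57 in shControl. Pramel21 rose by 0.37 in shPhf5a (SE 0.11, adjusted p = 0.0263) and by 0.57 in shPaf1 (SE 0.11, adjusted p = 0.00255), and its shPhf5a call was lost without shPhf5a array 1 or 3 or any one shControl array (adjusted p 0.0531 to 0.0873). Pramel5 passed in shPhf5a, at 0.43 (SE 0.15, adjusted p = 0.044), and not in shPaf1, at 0.26 (adjusted p = 0.22). Its call ended under 9 other settings, with adjusted p between 0.0556 and 0.142. Pramel14 passed in shPaf1, at 0.22 (SE 0.07, adjusted p = 0.047), and not in shPhf5a, at 0.11 (adjusted p = 0.306). That call ended under 10 other settings, with adjusted p between 0.0507 and 0.165. For neither Pramel5 nor Pramel14 did the difference between the knockdowns pass the test (adjusted p = 0.481 and 0.356).

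The following 7 members of the cluster did not pass in either knockdown: Pramel15, Pramel16, Pramel22, Pramel23, Pramel25, Pramel26 and Pramel27. Their log2 changes lay between -0.07 and 0.03 in shPhf5a and between -0.04 and 0.16 in shPaf1. All were among the members with means below the lower quartile of the genes. Pramel13, also known as Pramef12 and needed by mouse spermatogonial stem cells, had one of the brighter probe sets and a negative change. It measured 8.65, 8.85 and 8.69 in shPhf5a, 8.62, 8.70 and 8.60 in shPaf1 and 8.89, 8.81 and 8.77 in shControl. The shPaf1 arrays lay below all shControl arrays, whereas the shPhf5a arrays overlapped them. Its log2 change was -0.09 in shPhf5a (adjusted p = 0.319) and -0.18 in shPaf1 (SE 0.06, adjusted p = 0.0534), and the shPaf1 change passed the threshold under 7 other settings, with adjusted p between 0.0105 and 0.0431. Pramel32, which lies alone between interferon alpha genes on chromosome 4, changed by 0.05 in shPhf5a and 0.07 in shPaf1 and did not pass.

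**Figure D3:**
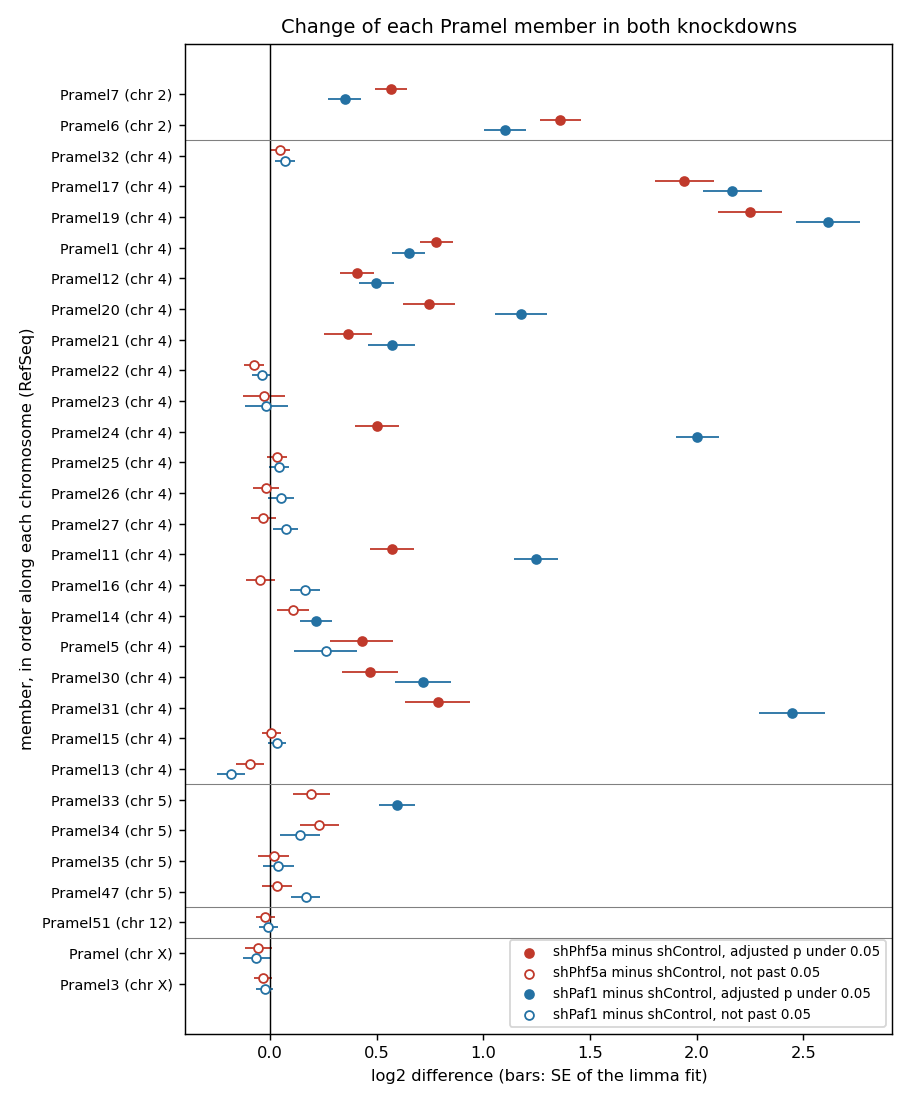
Log2 difference of each Pramel member from shControl in shPhf5a and shPaf1 (points), with the standard error of the limma fit (bars), members down the page by chromosome and filled points where the adjusted p is under 0.05. Filled points lie to the right of 0 in both knockdowns, and the largest gaps between the 2 points of a member are those of Pramel24 and Pramel31.

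Members on chromosomes 5, 12 and X changed little through their own probe sets, except Pramel33 in shPaf1. On chromosome 5, Pramel33 measured 6.86, 6.68 and 6.93 in shPhf5a, 7.20, 7.14 and 7.34 in shPaf1 and 6.73, 6.66 and 6.50 in shControl. Its shPaf1 arrays lay above all others, and the shPhf5a arrays overlapped shControl. Pramel33 rose by 0.60 in shPaf1 (SE 0.09, limma adjusted p = 0.000399), a 1.51-fold change, and changed by 0.19 in shPhf5a (adjusted p = 0.108). Without the second shPhf5a array, that shPhf5a change and the one of Pramel34 passed. Pramel34 changed by 0.23 in shPhf5a (SE 0.09, adjusted p = 0.0791) and 0.14 in shPaf1 (adjusted p = 0.299). The probe set of Pramel34 that the rule kept averaged 5.38 over all arrays, and its other one, at 4.58, was not called either. Pramel35 and Pramel47 on chromosome 5, Pramel51 on chromosome 12, and Pramel and Pramel3 on the X chromosome had group means between 4.58 and 4.89, and none passed in either knockdown. Their log2 changes lay between -0.06 and 0.17.

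The promoters of Pramel33 and Pramel35 are shown because they were the most alike of any pair, at 99.7% identity, while the probe set of Pramel33 changed in shPaf1 and that of Pramel35 did not pass. In these RefSeq windows on GRCm38.p6, Pramel33 lies on the minus strand at chr5:93536282-93536581 and Pramel35 on the plus strand at chr5:93794374-93794673. The capital marks the 1 base at which they differ.
Pramel33: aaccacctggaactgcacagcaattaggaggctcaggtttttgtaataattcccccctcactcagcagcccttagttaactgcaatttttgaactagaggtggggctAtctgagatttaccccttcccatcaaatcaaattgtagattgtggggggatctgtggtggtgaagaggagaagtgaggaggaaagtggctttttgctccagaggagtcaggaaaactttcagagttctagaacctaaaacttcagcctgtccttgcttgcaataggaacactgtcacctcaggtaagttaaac
Pramel35: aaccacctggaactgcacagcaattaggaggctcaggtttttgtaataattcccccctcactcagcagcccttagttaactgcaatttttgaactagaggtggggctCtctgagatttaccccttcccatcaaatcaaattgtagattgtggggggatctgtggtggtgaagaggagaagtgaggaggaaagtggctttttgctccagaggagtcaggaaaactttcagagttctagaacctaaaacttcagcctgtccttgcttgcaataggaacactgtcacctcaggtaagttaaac
Pramel35 measured between 4.58 and 4.83 over the knockdown arrays, close to the lowest value of the whole table, 4.35. Both genes are also annotated, with others, to shared probe sets. Of these, 4 for 17 genes rose in both knockdowns, and 1 for 13 genes was called in neither. Whether Pramel33 and Pramel35 themselves differed in their response was not tested.

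Set against each other directly, the knockdowns differed in 6 of 30 members, all lower in shPhf5a than in shPaf1. That share was close to the 16.3% of all genes that were lower and below the 29.0% that differed in either direction. In this comparison 0 members were higher in shPhf5a by limma at an adjusted p under 0.05, where 12.7% of all genes were. At an unadjusted p under 0.05, 2 were higher (Pramel6 and Pramel7) and 7 lower. Pramel31 differed by -1.66 (SE 0.15, limma adjusted p = 4.77e-05), a level 3.16-fold lower in shPhf5a, and Pramel24 by -1.50 (SE 0.10, adjusted p = 9.1e-06), 2.83-fold lower. Pramel11 differed by -0.67 (SE 0.10, adjusted p = 0.000922) and Pramel33 by -0.40 (SE 0.09, adjusted p = 0.00586). Pramel20, at -0.43 (SE 0.12, adjusted p = 0.0231), and Pramel16, at -0.21 (SE 0.07, adjusted p = 0.0496), were close to the threshold. The call for Pramel20 ended under 6 other settings (adjusted p 0.0504 to 0.0922), among them leaving out shPhf5a array 1 or 2 or shPaf1 array 1 or 2, and that for Pramel16 under 10 (0.0538 to 0.174).

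For the other members with large rises, the difference between the knockdowns did not pass the test. Pramel19 differed by -0.37 between shPhf5a and shPaf1 (SE 0.15, limma adjusted p = 0.1) and passed without the first shPhf5a array (adjusted p = 0.0206). Pramel17 differed by -0.22 (SE 0.14, adjusted p = 0.289) and Pramel1 by 0.13 (SE 0.08, adjusted p = 0.276). Pramel6 and Pramel7 ran the other way, higher in shPhf5a by 0.26 (SE 0.10, adjusted p = 0.076) and by 0.22 (SE 0.08, adjusted p = 0.0596). Pramel6 passed in 3 other settings, one of them leaving out the second shPhf5a array, and Pramel7 in 5, among them leaving out shControl array 1 or 3. The median difference over all members was -0.05, beside -0.02 over all genes.

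Promoter windows of RefSeq (GRCm38.p6) were found by symbol for 26 of the 30 members. Pramel12, Pramel34, Pramel47 and Pramel51 were not matched. Both strands were searched for 4 words that do not contain one another. The CCAAT box, CCAAT, was found in 12 of 26 member promoters (46.2%) and in 37.4% of all 32851 promoters. The TATA box, TATAAA, was found in 6 (23.1%) and in 13.6% of all promoters. These 6 are Pramel20 and Pramel31, which rose in both knockdowns, and Pramel23, Pramel26, Pramel27 and Pramel, which passed in neither. Neither the STAT palindrome, TTCNNNGAA, nor the E-box of MGA and MAX, CACGTG, was found in the member windows, and they occur in 8.3% and 7.15% of all promoters. That 0 of 26 promoters held them says only that these letters are not in these windows. The median number of CpG pairs per window was 1.5 in the members, with a range of 0 to 20, and 7.0 in all promoters. It was 2.0 in the 14 promoters of members that rose in at least 1 knockdown and 1.0 in the other 12.

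Alignments of the promoters put 3 of 325 pairs at 80% identity or more. Besides the pairs printed above, Pramel14 and Pramel30 shared 97.3% of positions. Their log2 changes lay 0.36 apart in shPhf5a and 0.50 apart in shPaf1. Pramel20 and Pramel31 shared 75.6%, with changes 0.04 apart in shPhf5a and 1.27 apart in shPaf1.

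Many Pramel copies share their probe sets with other genes, and those probe sets, left out of the counts above, rose too. There were 42 probe sets annotated to several genes that include a Pramel symbol, in 13 distinct sets of genes, 33 of them for chromosome 5, 6 for chromosome 4 and 3 for the X chromosome. No change is assigned to a single gene from them, and since they read overlapping sequences they do not count as separate observations. In a fit of all 33793 probe sets, 34 of 42 rose and 0 fell in shPhf5a, where 15.0% of all probe sets rose, and 37 rose and 0 fell in shPaf1, where 14.4% rose. At an unadjusted p under 0.05, 1 was lower in each knockdown. The median log2 change was 0.93 in shPhf5a and 1.54 in shPaf1. Against shPaf1 directly, 21 were lower in shPhf5a, where 12.0% of all probe sets were, and 0 were higher by limma (0 also at an unadjusted p under 0.05).

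The shared probe sets of chromosome 5 ranged from large rises to no call. A set of 10 probe sets annotated to the same 4 genes had means of 8.12 to 8.40 in shPhf5a, 9.86 to 10.5 in shPaf1 and 7.26 to 7.37 in shControl. All 10 rose in both knockdowns, by 1.79 to 2.07-fold in shPhf5a and 5.98 to 9.12-fold in shPaf1, and all were lower in shPhf5a than in shPaf1, by log2 differences of -2.20 to -1.74. A set of 5 probe sets for 11 genes rose by log2 changes of 1.17 to 1.25 in shPhf5a and 2.49 to 2.66 in shPaf1. Another 7 probe sets, for 3 genes, rose by 1.02 to 1.30 in shPhf5a and 1.21 to 1.57 in shPaf1, and none of these 7 was called between the knockdowns. A further 4 probe sets, for 17 genes, rose by 0.45 to 1.15 in shPhf5a and 0.50 to 1.46 in shPaf1, and a single one, for 3 genes, rose by 0.83 in shPhf5a and 3.09 in shPaf1. The remaining 6 of chromosome 5 changed by at most 0.27 in shPhf5a, none past the test, and by 0.03 to 0.66 in shPaf1, where 4 of them rose. The 3 probe sets of the X chromosome, annotated to 5 genes, rose by 0.43 to 0.45 in shPhf5a and 0.44 to 0.45 in shPaf1. On chromosome 4, a set of 3 probe sets for 6 genes rose by 1.31 to 1.35 in shPhf5a and 2.06 to 2.21 in shPaf1. The other 3 of chromosome 4 changed by -0.16 to 0.17 in shPhf5a, where 1 rose, and by -0.13 to 0.14 in shPaf1, none past the test.

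**Figure D4:**
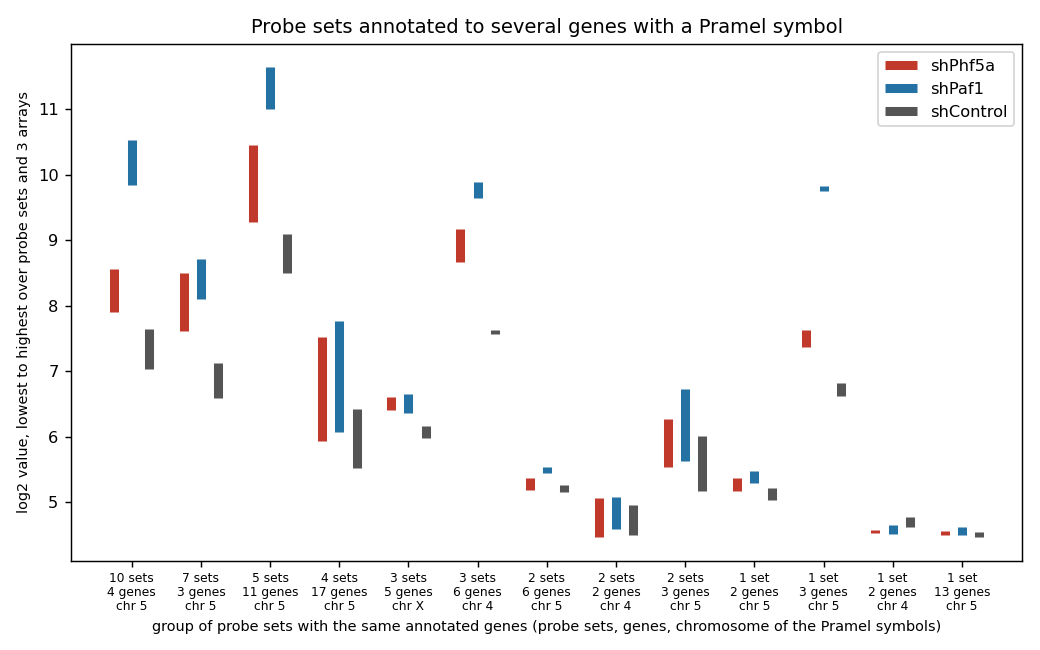
Lowest to highest log2 value (bars) over the probe sets and 3 arrays of each group, for the 13 groups of probe sets annotated to the same several genes with a Pramel symbol. For the groups of 10, 7, 5 and 3 brighter probe sets on chromosomes 5 and 4, the shPhf5a and shPaf1 bars lie above the shControl bar, while the single probe sets near 4.5 do not.

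The PRAME family genes tested under other symbols gave no call. Genes under other symbols on the shared probe sets above were not in this list. Prame itself and the oocyte genes Oog1, Oog2, Oog3 and Oog4 gave 0 of 5 calls by limma in any of the 3 comparisons, also at an unadjusted p under 0.05. Their group means lay between 5.15 and 5.67.

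Genes of the pathways around Pramel7 moved in both directions. A list of the Cullin-2 ligase and its adaptors also held Cul5, the scaffold of another ligase. Of its 9 measured genes, 3, among them Cul5, rose and 5 fell in shPhf5a. In shPaf1, 1 rose and 6 fell. Over all genes, 16.7% rose and 20.7% fell in shPhf5a and 18.0% and 17.8% in shPaf1. Cul2 itself, the Cullin-2 scaffold, changed by -0.19 in shPhf5a (limma adjusted p = 0.076) and fell by 0.26 on the log2 scale in shPaf1 (adjusted p = 0.0251). Among substrate receptors, Klhdc2 changed by -0.50 in shPhf5a and -0.84 in shPaf1 and Vhl by -0.72 and -0.53, all past the test. Lrr1 also fell in both knockdowns, whereas Zyg11b rose in both. Fem1b rose by 0.35 in shPhf5a (adjusted p = 0.000456) and changed by 0.09 in shPaf1 (adjusted p = 0.231). Of 8 DNA methylation genes, 0 rose and 5 fell in shPhf5a, with 2 higher at an unadjusted p under 0.05, while 5 rose and 2 fell in shPaf1. Uhrf1 changed by -0.58 in shPhf5a (adjusted p = 0.00208) and by -0.19 in shPaf1 (adjusted p = 0.223), and the de novo methyltransferase Dnmt3b by -0.82 (adjusted p = 0.0018) and 0.48 (adjusted p = 0.0331). The arrays measure RNA and say nothing of UHRF1 protein.

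Genes of the LIF and STAT3 pathway and of germline gene silencing also moved in both directions. Shares over all genes were 16.7% higher and 20.7% lower in shPhf5a and 18.0% and 17.8% in shPaf1. Of 11 genes of the LIF and STAT3 pathway, 2 rose and 5 fell in shPhf5a and 3 rose and 3 fell in shPaf1. The kinase Jak1 rose by 0.76 in shPhf5a and 0.65 in shPaf1, and the target Klf4 changed by -0.38 and -0.67, each past the test. Gbx2 changed by -1.17 in shPhf5a (limma adjusted p = 6.39e-05) and by 0.17 in shPaf1 (adjusted p = 0.332). Of 16 genes of the variant polycomb complex of Mga and E2f6 and of other silencers of germline genes, 2 rose and 7 fell in shPhf5a and 4 rose and 6 fell in shPaf1. Among them, Cbx3 changed by -0.61 in shPhf5a and -0.71 in shPaf1 and Tfdp1 by -0.81 and -0.41, while Yaf2 rose by 0.41 and 0.83.

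Most genes of a list of other 2-cell-stage genes rose. The list also holds Zfp809, a silencer of retroviruses rather than a 2-cell-stage gene. Of 25 measured, 21 rose and 1 fell in shPhf5a and 22 rose and 1 fell in shPaf1, with medians of 1.41 and 1.77. Over all genes, 16.7% rose and 20.7% fell in shPhf5a and 18.0% and 17.8% in shPaf1. Zfp809 was among the rises in both knockdowns. Dppa4, already bright in shControl with a mean of 11.1, was the 1 that fell. In shPhf5a against shPaf1 directly, 1, Zfp809, was higher and 15 lower, with a median of -0.59. Over all genes, 12.7% were higher and 16.3% lower. The mean level of the list was 8.96 to 9.44 over the shPhf5a arrays, 9.81 to 9.85 over the shPaf1 arrays and 7.84 to 7.93 over the shControl arrays. Tdpoz4 rose by 2.02 in shPhf5a (limma adjusted p = 4.43e-06) and 3.49 in shPaf1 (adjusted p = 1.51e-07), and Usp17la by 2.24 (adjusted p = 1.94e-05) and 3.50 (adjusted p = 1.43e-06). These families also hold near-identical copies.

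Most trophoblast and primitive endoderm markers rose as well, whereas most embryonic stem cell markers fell. Beside the counts below, 16.7% of all genes rose and 20.7% fell in shPhf5a, and 18.0% and 17.8% in shPaf1. Of 9 trophoblast markers, 8 rose and 0 fell in shPhf5a and 5 rose and 1 fell in shPaf1, with mean levels of 8.21 to 8.53 in shPhf5a, 8.07 to 8.16 in shPaf1 and 7.15 to 7.26 in shControl. The defining marker Elf5 lay at 5.24 to 5.29 in all groups. Of 8 primitive endoderm markers, 5 rose and 0 fell in each knockdown, with mean levels of 7.63 to 7.94 in shPhf5a, 7.63 to 7.65 in shPaf1 and 7.11 to 7.22 in shControl. Of 7 embryonic stem cell markers 0 rose and 5 fell in each, Nanog by a log2 change of -0.25 in shPhf5a and -0.84 in shPaf1. Fibroblast markers gave 0 of 8 calls by limma in shPhf5a, with 0 at an unadjusted p under 0.05, and 2 rises in shPaf1. Their mean levels were 5.93 to 6.0 in shPhf5a, 6.13 to 6.18 in shPaf1 and 5.98 to 6.0 in shControl. The part of any of these cell types in the Pramel changes was not tested.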

How the data were processed

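The authors deposited 1 log2 expression value for each probe set on each array, and these values were used as given. Per the labels' protocols, 125 ng of total RNA was made into cDNA and hybridized to Affymetrix arrays. How the authors normalized them, with which software and on which log base was not given in the sources used here. The range of 4.35 to 13.7 led to their being read as log2. The platform annotation gave 1 gene symbol for 23521 of 33793 probe sets, several for 1814 and did not list 8458. All 30 members matched the RefSeq table (GRCm38.p6) by gene ID with the same symbol, and that table holds 18 further Pramel symbols without a probe set of their own. Its names, order and chromosomes were used, and coordinates are printed for promoter windows only, since the build behind the array is not given here.

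Groups and replicate numbers came from the sample titles. The test was limma 3.58.1 (lmFit, eBayes) in R 4.3.3, fitted to the 9 arrays together with a mean for each group, and Benjamini-Hochberg adjustment over 22180 genes at 0.05. The members and the gene lists were chosen with earlier results of these data known. Values by array are given for Pramel6, Pramel7 and the 8 further members with the largest change in either knockdown, and Pramel13 and Pramel33 were added after their values were seen. From each list up to 4 called genes with the largest change were eligible by name. Cul2, named as the Cullin-2 scaffold, Cul5, Lrr1, Zyg11b, Zfp809, Dppa4, Nanog, Dppa5a and Elf5 were named besides. Promoters were aligned globally with Biopython 1.88. In simulations of 22180 genes for shPhf5a against shControl, 77.6%, 98.2% and 100% of log2 changes of 0.5, 1 and 2 were called, with 7 of 21980 unchanged genes. For shPaf1 against shControl these were 65.6%, 98.6% and 100%, with 9 of 21980. Noise was normal and nearly all genes were unchanged, whereas in the data 37.4% and 35.8% of genes were called. The adjusted threshold was therefore stricter in the simulations, and these rates do not carry over to the data. Alternatives were other normalizations, filters, probe set rules and variance models, the replicate block and leaving out each array. The small number of arrays limits precision throughout.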

Additional observations from a re-analysis of the deposited data

How the results depend on the processing

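Under 19 other settings no tested change of a member that was called turned its direction. Only genes above the median level left 8 members, of which 6 rose in shPhf5a (median log2 change 0.49), 7 rose and 1 fell in shPaf1 (0.68), and between the knockdowns 1 was higher and 2 lower in shPhf5a (-0.17), as fewer members were tested. This filter uses the mean over all arrays, and Pramel6 and Pramel33, with shControl means of 5.99 and 6.63 below the gene median of 6.70, passed it only through the knockdown arrays, so these values support no rise. In shPaf1, 1 member (Pramel13) fell under quantile normalization, centring of each array, array weights and a fit of the 6 arrays compared. Centring gave a median of 0.13 in shPaf1 and of -0.024 between the knockdowns. Between the knockdowns, 1 member was higher in shPhf5a with centring and with 6 arrays, and 2 were with array weights. The cause of these shifts was not tested.

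Leaving out 1 array at a time gave 10 to 14 members higher in shPhf5a, 13 to 14 higher and 0 to 1 lower in shPaf1, and 0 to 1 higher and 4 to 6 lower between the knockdowns. The medians were then 0.10 to 0.19, 0.19 to 0.22 and -0.07 to -0.04. With the replicate number as a block, 12 members rose in shPhf5a, Pramel5 being lost, 14 rose in shPaf1 and 6 were lower between the knockdowns, and no other member changed its call. All genes called with the block were 3659 higher and 4551 lower in shPhf5a. The numbers did not pair the arrays: deviations of same-numbered arrays correlated at -0.06 to 0.11, and 4 of 9 arrays correlated best with their own number.

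No scan date or slide was used here, so no batch was tested. Cross-hybridization between family members was not tested either. Each group has 3 arrays, which limits what changes of dim members can be called.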

Other observations

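Most germ cell genes measured were higher in shPhf5a than in shPaf1. Of 12 measured, 10 rose and 1 fell in shPhf5a, and 4 rose and 2 fell in shPaf1, with median log2 changes of 0.72 and 0.09. Over all genes, 16.7% rose and 20.7% fell in shPhf5a and 18.0% and 17.8% in shPaf1. In shPhf5a against shPaf1 directly, 10 were higher and 1 lower, with a median of 0.88, where 12.7% and 16.3% of all genes were. Taf7l, a testis paralogue of a TFIID subunit, rose by 2.40 in shPhf5a (SE 0.11, limma adjusted p = 1.91e-06) and by 1.34 in shPaf1 (adjusted p = 1.52e-05). Dazl, an RNA-binding protein of germ cells, rose by 1.52 in shPhf5a (adjusted p = 2.45e-06) and by 0.61 in shPaf1 (adjusted p = 0.000191). Mael, a factor of transposon silencing in the germ line, rose by 1.23 in shPhf5a (adjusted p = 1.48e-05) and changed by 0.19 in shPaf1 (adjusted p = 0.17). The mean level of the list was 8.51 to 8.71 over the shPhf5a arrays, 7.91 to 7.96 over the shPaf1 arrays and 7.75 to 7.88 over the shControl arrays.

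Of 13 oocyte genes, 0 rose by limma in either knockdown, also at an unadjusted p under 0.05, and 1, Zp3, fell in each, by a log2 change of -0.71 in shPhf5a and -0.55 in shPaf1. The group means of the list's genes ran from 4.84 to 8.33.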
